A study of Mus musculus with 18 samples.

Results

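The Insr and Arhgef18 block is a set of 10 genes on chromosome 8, between 3.1 and 3.8 Mb of the GRCm39 genome. They were chosen by their levels in these same tumors, as the named genes of that interval that stood high together, so those levels are given as a description. The 10 genes are Insr, Arhgef18, Pex11g, Zfp358, Mcoln1, Pnpla6, Camsap3, Xab2, Stxbp2 and Trappc5, out of 57126 genes in the table. All 10 passed the filter on low counts, as did 22481 genes in all. The interval holds 20 annotated protein-coding genes, of which 18 passed.

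RNA was sequenced from 18 mammary tumors of mice in which Trp53, which encodes the tumor suppressor p53, had been altered by an adenovirus carrying Cre recombinase injected into the mammary ducts. The 7 MaP R172H/- and 5 MaP R245W/- tumors express the missense mutant p53R172H or p53R245W, and the 6 MaP -/- tumors carry no functional Trp53 in the recombined cells. In all 3 groups only the recombined epithelial cells are altered, so the stroma keeps WT Trp53. The mice were female F1 hybrids of BALB/c and C57BL/6J, injected as young adults. Ages at harvest are not in the labels. A Rosa26 LSL-TdTomato reporter allele was also present in YZ2, YZ6 and YZ10 of the MaP R172H/- group and in JM1233, JM1564 and RM0014 of the MaP R245W/- group. The 6 MaP -/- tumors came from 4 mice, since JM663 and JM833 each gave 2. The MaP R172H/- libraries were read on a HiSeq instrument and all others on a NovaSeq, so genotype and platform cannot be told apart. In the study's list the MaP R172H/- tumors were nonmetaplastic adenocarcinomas, luminal B or HER2-enriched, and all others were triple-negative. Molecular subtype and genotype therefore cannot be told apart either. The JM779 and JM836 libraries are labelled T1, whereas a list in the study marks T2 of each as the sequenced tumor.

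The total count per tumor ranged from 23113578 to 37365062. Trp53 itself, the targeted gene, was measured at 10.8 to 50.3 CPM (counts scaled to a common library size) in MaP R172H/- tumors, 9.09 to 59.0 CPM in MaP R245W/- tumors and 9.43 to 21.6 CPM in MaP -/- tumors. These are values of whole tumors, stroma included. The most alike pair of libraries, YZ2 and YZ3, had a Spearman correlation of 0.970 over the genes tested, and at most 544 of those genes had equal counts in any pair. Every library was therefore counted as its own sample. In a bulk tumor, fewer cells of a type and less RNA per cell cannot be told apart.

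The block genes do unrelated work in the cell. Insr encodes the insulin receptor, a tyrosine kinase that signals through IRS proteins, PI3K and AKT and shares this route with the IGF1 receptor. Arhgef18 encodes a guanine nucleotide exchange factor that loads GTP onto RhoA and acts on the actomyosin belt at epithelial junctions. Camsap3 binds the minus ends of microtubules and organizes them in epithelial cells. Mcoln1 is a cation channel of the lysosome, Pnpla6 a lysophospholipase of the endoplasmic reticulum, and Pex11g a protein of peroxisome division. Stxbp2 is a Munc18 protein that works with syntaxins in exocytosis, and Trappc5 is a subunit of the TRAPP complexes of vesicle traffic. Xab2 takes part in transcription-coupled DNA repair and splicing, and Zfp358 encodes a zinc finger protein.

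In tumor YZ7, from the MaP R172H/- group, all 10 genes stood at 8.63 to 52.4 times their 18-tumor median, with a median ratio of 27.1. In tumor YZ4, of the same group, all 10 stood at 2.17 to 4.96 times, with a median ratio of 3.30. In YZ7, 15.3% of all genes tested were at 2 times their median or more, and in YZ4 10.9%. In the other 16 tumors the median ratio of the 10 genes was between 0.688 and 1.197, and 2 of 160 values reached 2. These 2 were Zfp358 in YZ3 (2.25) and Pex11g in JM1564 (2.18). The 10 genes together held 1.47% of all counts in YZ7 and 0.201% in YZ4. In the other 16 tumors they held 0.0396% to 0.0709%.

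**Figure D1:**
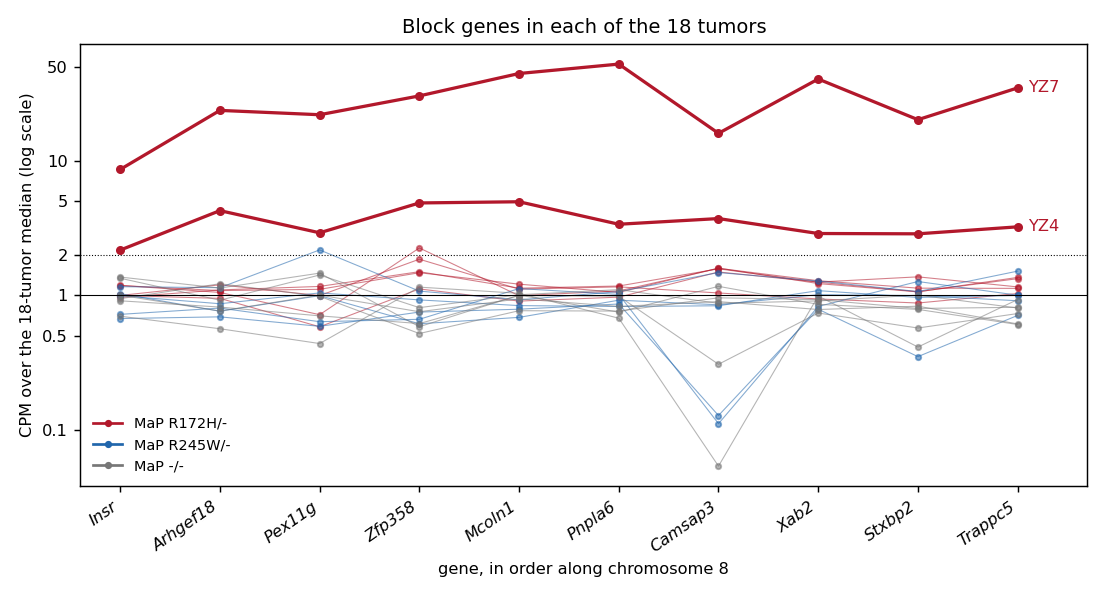
CPM of each block gene over its 18-tumor median (log axis), by gene in the order along chromosome 8, 1 line per tumor, coloured by group; the dotted line marks a ratio of 2. YZ7 lies between 8.63 and 52.4 and YZ4 between 2.17 and 4.96, and the other 16 tumors reached 2.25 at most.

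Arhgef18 (ENSMUSG00000004568; chr8:3403415-3507334, plus strand) had 74.5 CPM in the lowest MaP R172H/- tumor, a median of 86.2 CPM and 1862 CPM in YZ7, where it held 42306 counts. YZ4 followed at 335 CPM. In the MaP R245W/- tumors it had 54.3 (JM1233), 89.5 (JM1564), 59.8 (RM0014), 63.1 (JM1126) and 68.0 CPM (JM1133). The MaP -/- tumors ran from 44.3 to 95.7 CPM, with a median of 68.2. Outside YZ7 and YZ4 the 5 remaining MaP R172H/- tumors, at 74.5 to 94.0 CPM, lay inside the range of the MaP -/- tumors. Fitted over all tumors of both groups, the mean was 374 ± 663 CPM (SD, n = 7) against 70.9 ± 19.0 CPM (SD, n = 6), which gave a log2 fold change of 2.41 ± 0.82 (SE; FDR = 0.0851 from edgeR's quasi-likelihood test with Benjamini-Hochberg adjustment). The standard deviation of the MaP R172H/- group exceeded its mean, and without YZ7 the log2 fold change was 0.87 (FDR = 0.173 by edgeR). By DESeq2 over all tumors Arhgef18 was called (2.43, FDR = 0.0135). Arhgef18 was chosen with its high levels in these tumors known, so these FDRs are a description only.

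By qRT-PCR the study reported a significant rise of Arhgef18 after p53R172H was overexpressed in a cell line from a Trp53-null mammary tumor. The primers of that measurement are shown because they fix which transcripts such a value covers. They match chr8:3497017-3497038 (plus strand) and chr8:3498415-3498436 (minus strand), in exons 20 and 21 of the canonical Arhgef18 transcript, and give a product of 128 bases. No letter is capitalized, since no part is singled out.
Arhgef18 forward primer: ggaggacgttttcagtgaggct
Arhgef18 reverse primer: gctgtttctccagaaggctctg
Both match 5 of the 13 annotated Arhgef18 transcripts and no other gene.

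Insr (ENSMUSG00000005534; chr8:3172061-3329647, minus strand) had the smallest ratio of the 10 in both tumors. It had 1464 CPM in YZ7 and 368 CPM in YZ4, against a lowest value of 164 CPM and a median of 201 CPM over the MaP R172H/- group. The MaP R245W/- tumors had 114 (JM1233), 197 (JM1564), 175 (RM0014), 122 (JM1126) and 169 CPM (JM1133). The MaP -/- tumors ran from 119 to 232 CPM, with a median of 165. YZ7 and YZ4 were the 2 tumors above the MaP -/- range, and the groups overlapped.

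Pnpla6, encoding the phospholipase also called neuropathy target esterase, had the largest ratio of the 10 in YZ7, and in YZ4 Mcoln1 had. Its level was 3914 CPM in YZ7 (88914 counts) and 252 CPM in YZ4, while the other 16 tumors had 50.5 to 87.6 CPM. Its neighbour Mcoln1, whose annotated end lies just before the Pnpla6 start, had 1786 CPM in YZ7 and 199 CPM in YZ4. In the other 16 tumors Mcoln1 had 27.5 to 48.5 CPM. For these 2 genes, as for all 10 members, YZ7 was the highest tumor and YZ4 the next.

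Xab2 had 3012 CPM in YZ7 and 214 CPM in YZ4, against 54.8 to 95.3 CPM in the other 16 tumors. Stxbp2 had 1545 CPM in YZ7 and 219 CPM in YZ4, against 26.7 to 105 CPM. Trappc5 had 1102 CPM in YZ7 and 102 CPM in YZ4, against 19.2 to 47.8 CPM. All 3 of these genes, of repair and of vesicle traffic, were therefore high in the same 2 tumors and in no other.

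Zfp358 had 489 CPM in YZ7 and 78.3 CPM in YZ4. Its other MaP R172H/- values were 17.97 to 36.2 CPM, above the 9.89 to 17.3 CPM of the MaP R245W/- tumors. JM779-T1, at 18.5 CPM, was the 1 MaP -/- tumor that reached into the MaP R172H/- range, and the other MaP -/- tumors had 8.37 to 13.0 CPM. Without YZ7 and YZ4 the 5 remaining MaP R172H/- tumors thus still lay above 10 of the 11 tumors of the other groups. Pex11g, the member with the lowest level, had 107 CPM in YZ7 and 14.2 CPM in YZ4, and 2.13 to 10.6 CPM elsewhere.

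Camsap3, the epithelial microtubule gene, had 318 CPM in YZ7 and 73.9 CPM in YZ4. It was the member that fell furthest below its median. It had 2.54 CPM in JM1233, 2.21 CPM in JM1126, 6.10 CPM in JM663-T2 and 1.07 CPM in JM779-T1, while the other 14 tumors had 16.6 CPM or more. These 4 low values were found in 2 MaP R245W/- and 2 MaP -/- tumors. Stxbp2 was also below its median in JM1233 (0.350 times), JM779-T1 (0.413) and JM663-T2 (0.571), but not in JM1126 (1.27). Pex11g was at 0.438 times in JM779-T1. The summed level of 7 epithelial markers (Epcam, Krt8, Krt18, Krt19, Cdh1, Krt5 and Krt14) was 162 CPM in JM779-T1 and 473 CPM in JM1233, the lowest and the third lowest of 18 tumors. In JM663-T2 it was 1998 CPM and in JM1126 3686 CPM. The part of epithelial content in the Camsap3 level was not tested.

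**Figure D2:**
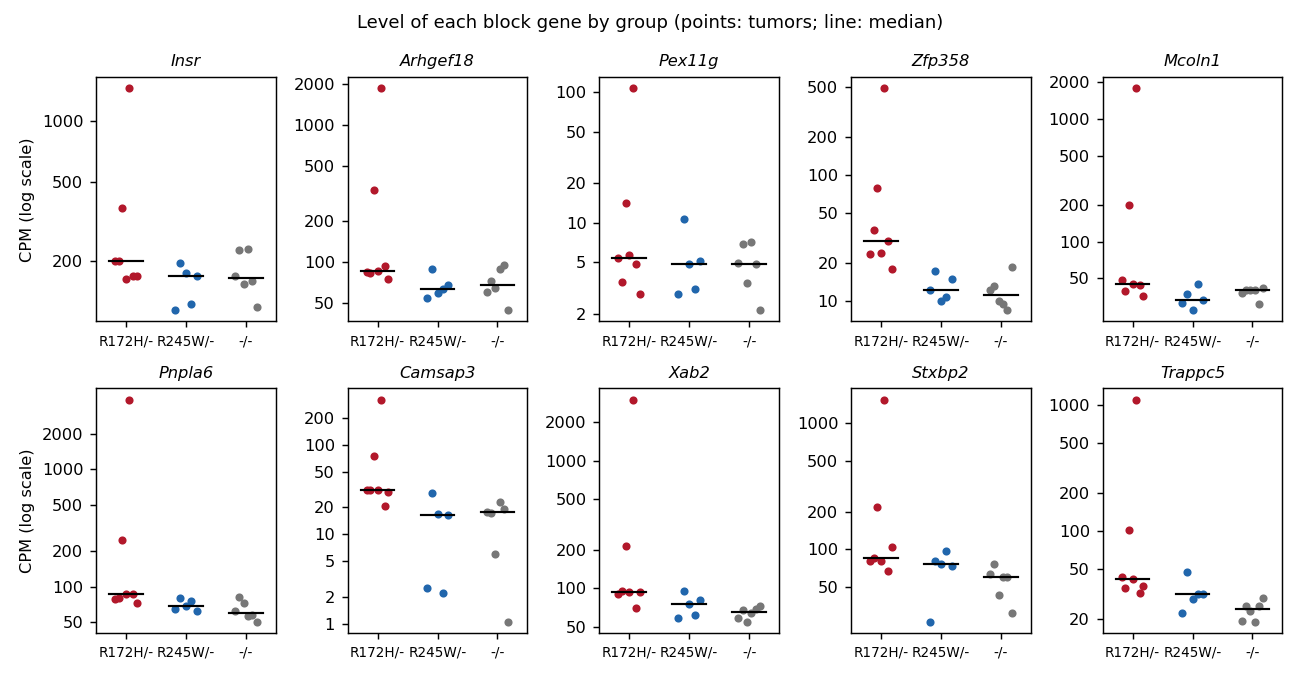
Level of each block gene in CPM (log axis, a separate scale per gene) in the 7 MaP R172H/-, 5 MaP R245W/- and 6 MaP -/- tumors; each point is a tumor and each black line a group median. In every panel YZ7 is the highest point and YZ4 the next, and in Camsap3 4 tumors of the other groups lie at 1.07 to 6.10 CPM.

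YZ7 and YZ4 were also set against marker genes of the cells a mammary tumor can hold. The 7 epithelial markers summed to 369 CPM in YZ7, the second lowest of 18 tumors, and to 3997 CPM in YZ4, against a median of 3054 CPM in the other 16. All 7 were detected in YZ7, with Cdh1 highest at 216 CPM and Krt19 lowest at 2.60 CPM. The luminal keratins Krt8 (18.05 CPM) and Krt18 (39.3 CPM) were lower there than in any other tumor. Of the basal keratins, Krt5 was at 34.5 CPM in YZ7 and 440 CPM in YZ4, against a median of 1.82 CPM and at most 56.1 CPM in the other 16. Krt14 was at 34.3 CPM in YZ7 and 627 CPM in YZ4, against a median of 86.6 CPM. Fibroblast markers (Col1a1, Col1a2, Col3a1, Dcn and Pdgfra) summed to 2551 CPM in YZ7 and 4194 CPM in YZ4, against 2340 to 28696 CPM elsewhere. Endothelial markers (3 genes) summed to 227 and 180 CPM against 109 to 440 CPM, and macrophage markers (3 genes) to 288 and 293 CPM against 200.2 to 1350 CPM. Neutrophil markers (S100a8 and S100a9) were lowest in YZ7, at 0.792 CPM, and next lowest in YZ4, at 8.18 CPM, against 8.38 to 501 CPM. T cell, red blood cell and skeletal muscle markers in YZ7 and YZ4 lay within the range of the other tumors. So did the adipocyte markers, at 13.7 CPM in YZ7 and 191 CPM in YZ4. Their part in the level of the block was not tested.

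Per kilobase of annotated exon, the levels of the 10 genes in the median tumor were ordered from Stxbp2 (15.8 CPM per kb), Xab2 (15.3) and Insr (12.3) down to Camsap3 (3.24) and Pex11g (1.35). In YZ7 the order on the same scale was Xab2 (622 CPM per kb), Pnpla6 (351), Stxbp2 (320), Mcoln1 (230), Trappc5 (222), Zfp358 (167), Arhgef18 (127), Insr (106), Camsap3 (51.8) and Pex11g (29.6). Insr therefore had the third highest level of the 10 in the median tumor and the eighth highest in YZ7.

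The members are packed closely, and some share transcribed bases. Arhgef18 and Pex11g lie on opposite strands and overlap by 230 bases at their ends, and Camsap3 and Xab2 by 657 bases. Xab2 starts 9 bases from Pet100, which is transcribed away from it. The libraries were stranded, but the strand setting of the counting is not given in the sources used here, so reads of such pairs could have been shared.

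Of all 18 tested protein-coding genes of the interval, 17 stood at 2 times their median or more in YZ7 (all but Cd209a) and 17 in YZ4 (all but Mcemp1). In the other 16 tumors 0 to 5 of the 18 did. The 10 genes of the interval outside the block had low levels in most tumors, apart from Pet100. Pet100, a factor for assembling cytochrome c oxidase, had 582 CPM in YZ7 and 51.2 CPM in YZ4, against 9.96 to 25.1 CPM elsewhere. Pcp2 (23.6 CPM), Rps23rg1 (42.8 CPM) and Fcor (45.4 CPM), the last a corepressor of Foxo1, were each highest in YZ7, and each had a median under 1 CPM. Mcemp1 had 13.2 CPM in YZ7 and 21.0 CPM in JM1126. Saxo5 (92 counts in YZ7) and Clec4g (87 counts in YZ7) did not pass the filter. In the other tumors Saxo5 had 0.278 CPM at most and Clec4g 0.776 CPM.

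Retn and Fcer2a were high in YZ7 and in tumors of other groups. Retn, which encodes the adipocyte hormone resistin, had 8.10 CPM in YZ7 and 11.4 CPM in YZ4 but 105 CPM in JM833-T1, where the 4 adipocyte markers also had their highest sum (2872 CPM). Fcer2a, the low-affinity IgE receptor, had 36.4 CPM in YZ7 and 40.8 CPM in JM833-T2. The 3 T cell markers had their highest sum, 28.1 CPM, in that same tumor. Their part in these levels was not tested. Of 15 noncoding genes of the interval 3 passed the filter. All 3 were at 9.50 to 23.05 times their median in YZ7. They lie inside Insr (Vmn2r-ps88 and Gm16180) or Xab2 (Gm56004) on the opposite strand, so reads could have been shared.

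The far side of the raised segment differed between YZ7 and YZ4. No tested protein-coding gene lies between Insr and the start of the chromosome. On the other side Fcer2a stood at 38.8 times its median, while Cd209a, 49214 bases further on and the last gene inside the interval, stood at 1.48 times (1.01 CPM). Of the 5 tested protein-coding genes next beyond 3.8 Mb, Cd209e stood at 20.4 times (7.88 CPM, 179 counts). Cd209d, Cd209b, Cd209c and Cd209f, all lectins of this family, had 1 to 5 counts in YZ7 and stood at 0.0745 to 0.209 times. Among the 13 tested genes from 4.2 to 5 Mb the median ratio in YZ7 was 1.04, with 2 at 2 times or more. On the rest of chromosome 8 past 30 Mb the median ratio in YZ7 was 0.818, over 639 genes.

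In YZ4, Cd209a stood at 3.79 times its median, and 4 of the 6 tested genes from 3.8 to 4.2 Mb and 9 of the 13 from 4.2 to 5 Mb stood at 2 times or more. In that last window the median ratio was 2.32, against 3.30 for the 10 block genes. Evi5l (2.705), Map2k7 (2.26) and Timm44 (2.32), named after their values were seen, are 3 of these genes. Further on, YZ4 had 15 of the 17 tested genes from 12.5 to 13.6 Mb at 2 times or more, with a median ratio of 15.0. In YZ7 that window had a median ratio of 0.764. The limits of the windows between 3.8 and 13.6 Mb were not set in advance, so the counts in them are a description. Past 30 Mb the median ratio in YZ4 was 0.707.

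**Figure D3:**
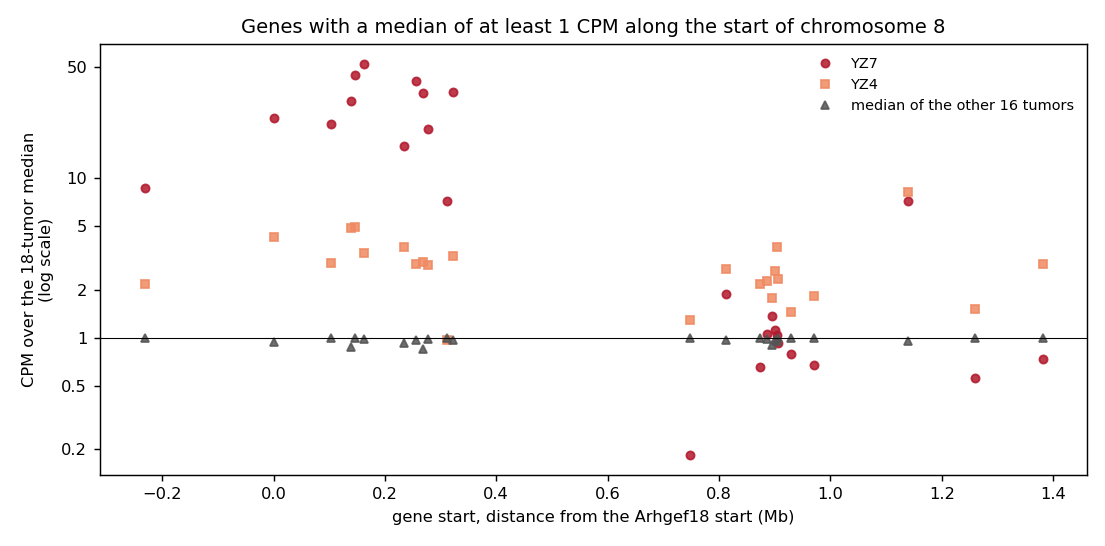
Ratio of CPM to the 18-tumor median (log axis) for the tested protein-coding genes with a median of at least 1 CPM, against the distance of each gene start from the Arhgef18 start in Mb, for YZ7, YZ4 and the median of the other 16 tumors. YZ7 stands at 7.23 to 52.4 up to Trappc5 and at 0.183 to 1.87 past the block, except for Cers4 (7.24), whereas YZ4 lies above 1 for every gene drawn past the block.

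The sequences that the study listed as matches to the binding motif of Nr5a2, a nuclear receptor, are shown for the 3 members it listed, because their place relative to the gene bears on how such matches are read. The 7 for Arhgef18 lie in GRCm39 between chr8:3470258 and chr8:3475855. This is inside the annotated Arhgef18 gene, in no exon, and 845 to 6432 bases before the start of a shorter transcript at chr8:3476700. Of the 8 for Camsap3, 7 lie inside Rps23rg1 and 1 lies between genes, 396 bases before the Camsap3 start. The 1 for Zfp358 lies 322 bases before that gene. The nearest match of each gene is given, with the letters AAGG in capitals where they occur.
Arhgef18, chr8:3475845-3475855, plus strand: tgccAAGGcta
Camsap3, chr8:3636887-3636897, minus strand: gttcAAGGtga
Zfp358, chr8:3542148-3542158, minus strand: tcccagggtca

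In the window of 250 bases before to 50 bases after each canonical start, none of the 10 members, and none of the 20 genes of the interval, held the Nr5a2 core CAAGGNCA on either strand, against 6.41% of 21770 promoters read the same way. That no match was found says only that these letters are not in this window. The GC box GGGCGG was found in 5 of the 10 members (42.5% of all promoters), CCAAT in 2 (39.9%) and TATAAA in 1 (13.2%). Zfp358 held 30 CG pairs in the window, Mcoln1 24 and Camsap3 0, against a median of 11 over all promoters. The 250 bases before the start are shown for Arhgef18 and Camsap3, whose listed matches lie elsewhere. No letter is capitalized, since neither holds a match to the motifs searched.
Arhgef18, chr8:3403187-3403436, plus strand: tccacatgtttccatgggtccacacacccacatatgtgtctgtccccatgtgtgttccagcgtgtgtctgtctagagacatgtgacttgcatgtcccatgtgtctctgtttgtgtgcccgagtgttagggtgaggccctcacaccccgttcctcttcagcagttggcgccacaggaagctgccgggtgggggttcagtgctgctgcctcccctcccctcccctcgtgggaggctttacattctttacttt
Camsap3, chr8:3637043-3637292, plus strand: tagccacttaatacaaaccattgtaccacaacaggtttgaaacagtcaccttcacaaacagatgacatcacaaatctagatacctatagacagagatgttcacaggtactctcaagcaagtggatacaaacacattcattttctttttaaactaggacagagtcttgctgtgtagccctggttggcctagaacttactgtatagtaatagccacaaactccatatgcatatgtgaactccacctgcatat
Motif matches are descriptions of the sequence and not binding sites.

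The group comparisons ask whether tumors with a p53 missense mutation differ from tumors without p53. In MaP R172H/- against MaP -/- tumors all 10 members had a log2 fold change above 0, from 1.16 (Insr) to 3.37 (Pnpla6), with a median of 2.76 against 0.00 over all genes. The members were chosen for standing high in YZ7 and YZ4, both of this group, so that direction was set by the choice. For the same reason their FDRs against either other group are a description only. A gene was called where the FDR was under 0.05 and the log2 fold change exceeded 2 in size. By this threshold 1 of the 10 was called, Zfp358 (3.07 ± 0.81, FDR = 0.0326 from edgeR). Over all genes 1.37% were called. That call was lost without YZ7 and without each MaP -/- tumor except JM779-T1 (FDR = 0.0565 to 0.0735 by edgeR for these 5). It was also lost with the tumors of each mouse summed (FDR = 0.121 by edgeR). In a fit of all 18 tumors 6 of the 10 were called, and the share of all genes called in that fit is not given here. Trappc5 was the 1 member whose 2 groups did not overlap (lowest 32.6 CPM against highest 29.4 CPM). The share of all genes whose groups did not overlap was not counted in any comparison, so this is not set against a background. Without YZ7 none of the 10 was called by edgeR, and the median log2 fold change was 0.87. In that fit 7 of 10 members and 5392 of 20716 genes had an unadjusted p below 0.05. Zfp358 (1.58, FDR = 0.0170 by edgeR) and Trappc5 (1.06, FDR = 0.0336) were under the FDR threshold there, with folds too small for a call. Under that FDR threshold were 1866 of the 20716 genes in all. Without YZ4 and YZ7 the median log2 fold change was 0.43, with 9 of 10 above 0 and Pex11g at -0.10. Then none was called either, with 5 of 10 members and 5477 of 21058 genes at an unadjusted p below 0.05. Zfp358 (1.17, FDR = 0.0183), Trappc5 (0.70, FDR = 0.0226) and Xab2 (0.48, FDR = 0.0485) were the members at an FDR below 0.05 in that edgeR fit, as were 1582 genes in all.

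In MaP R172H/- against MaP R245W/- tumors, fitted over all 18, the members had log2 fold changes from 1.33 to 3.22 with a median of 2.56. Zfp358 (2.95, FDR = 0.0229 from edgeR) and Mcoln1 (3.17, FDR = 0.0459) were called, where 2.34% of all genes were. With a single tumor left out, 0 to 5 were called, and 0 without YZ7, RM0014 or JM1126. Zfp358 was the 1 member whose groups did not overlap, with the share of all genes not counted. Without YZ4 and YZ7 the median was 0.25, and no member was called by edgeR, with 1 of 10 members and 5595 of 22046 genes at an unadjusted p below 0.05. Both comparisons share the MaP R172H/- tumors and rest on the same 2 raised tumors.

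In MaP R245W/- against MaP -/- tumors the members had log2 fold changes from -0.20 (Insr) to 0.45 (Trappc5), with a median of 0.12, and 6 of 10 were above 0. None was called by edgeR or by DESeq2. None had an unadjusted p below 0.05 with edgeR, where 2527 of 21452 genes did, and 1 had with DESeq2. Over all genes 0% were called by edgeR, and the share by DESeq2 is not given here. The study, which used DESeq2, did report genes higher and lower in this comparison. All 10 members overlapped between these groups, with the share of all genes not counted. Both groups were read on the same instrument.

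**Figure D4:**
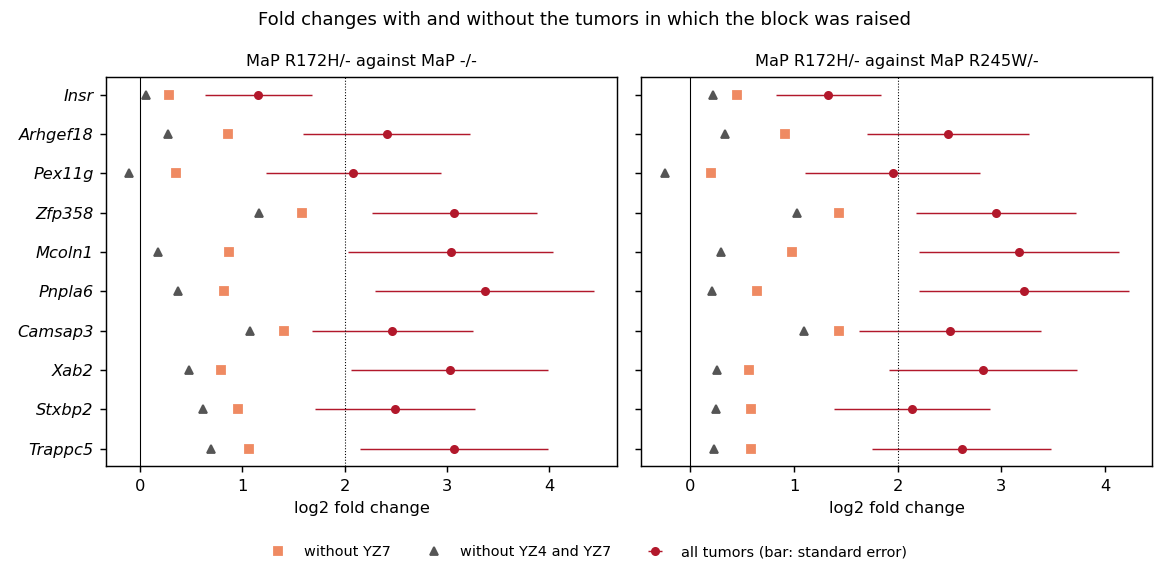
Log2 fold change of each block gene in MaP R172H/- against MaP -/- tumors (left) and against MaP R245W/- tumors (right), with all tumors (circles, bars of 1 standard error), without YZ7 (squares) and without YZ4 and YZ7 (triangles); the dotted line marks a log2 fold change of 2. On the left the median falls from 2.76 to 0.87 and 0.43.

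Genes that work with the block were taken from 9 lists, of which 146 genes outside the block were tested. In MaP R172H/- against MaP -/- tumors at an FDR under 0.05, 3 of the 146 were higher and 3 were lower, where 3.67% of all genes were higher and 4.73% lower. Among 34 genes of RhoA exchange factors and actomyosin, Arhgef17, another RhoA exchange factor, was higher (141 ± 41.0 against 80.5 ± 20.7 CPM, log2 fold change 0.83, FDR = 0.0370 from edgeR). Rock2, the kinase that RhoA activates, was lower (196 ± 37.4 against 298 ± 55.3 CPM, log2 fold change -0.58, FDR = 0.0459). Among 13 lysosomal genes, Tfeb, a transcription factor for lysosomal genes, was higher (log2 fold change 0.82, FDR = 0.0184). In the same list the channels Tpcn2 (-0.80, FDR = 0.0262) and Mcoln2 (-1.52, FDR = 0.0379) were lower. Zfp830, of the list around Xab2, was higher (0.70, FDR = 0.0285). Without YZ7, Rock2 and Mcoln2 no longer passed in edgeR, while Arhgef17, Tfeb, Zfp830 and Tpcn2 did.

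None of the 39 genes tested with Insr in insulin and IGF receptor signalling passed in that comparison by edgeR. The smallest FDR was 0.0509, for the adaptor Sh2b1 (log2 fold change 0.52), and the next was 0.0854 for Igf1 (-1.62). By DESeq2 both passed, and Sh2b1 also passed in edgeR without YZ7 and without YZ4 and YZ7. The median of the list was 0.09. None of 13 TRAPP subunits, 15 peroxins, 10 Munc18 and SNARE partners, 8 CAMSAP and minus-end partners or 5 patatin-like phospholipases passed either. Over all lists DESeq2, which tested 149 genes, gave 6 higher and 5 lower. With the 2 tumors of each mouse summed, Tfeb and Tpcn2 were the genes that still passed in edgeR.

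Against MaP R245W/- tumors 0 list genes were higher and 9 lower, where 2.91% of all genes were higher and 6.49% lower. The 3 TRAPP subunits Trappc2l (-0.86, FDR = 0.00240 from edgeR), Trappc4 (-0.76, FDR = 0.00320) and Trappc6b (-0.70, FDR = 0.0215) were lower, whereas Trappc5 of the block stood high in YZ7 and YZ4. Myl12a, a myosin light chain, was lower (65.4 ± 14.7 against 148 ± 30.4 CPM, log2 fold change -1.18, FDR = 0.00206). Cfl1, Rhob, Pex2 and Pex3 were among the other genes that passed. By DESeq2 4 list genes were higher and 12 lower. In MaP R245W/- against MaP -/- tumors 0 of the 146 passed in either direction by edgeR, where 0% of all genes did, and 0 passed by DESeq2.

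In YZ7 itself most list genes lay within 2-fold of their medians. Of all genes, 15.3% stood at 2 times or more and 19.0% were lower by 2-fold or more. In insulin and IGF receptor signalling 3 of 39 genes were at 2 times their median or more. They were Sh2b2 (5.46), Grb14 (3.38) and Shc1 (2.64), and the list's median ratio was 0.956 against 0.992 over all genes. Igf1r, the related receptor, had its lowest level of 18 tumors in YZ7 at 62.7 CPM, just below the next at 63.2 CPM. Among 34 RhoA and actomyosin genes 5 were at 2 times or more, led by the smooth muscle genes Myl9 (13.3) and Mylk (6.27). The other 7 lists held 0 or 1 such gene each, among them Pex10 (5.10). Lower by 2-fold or more in YZ7 were 6 of the RhoA and actomyosin genes, whose median ratio was 0.786. So were 4 genes of insulin and IGF receptor signalling, 2 lysosomal genes, 2 Munc18 and SNARE partners and 1 CAMSAP partner. In YZ4 the largest ratios of the lists were those of Lamp1 (21.8) and Mcf2l (15.1), both in the window from 12.5 to 13.6 Mb of chromosome 8 and named after their values were seen. Irs2, the insulin receptor substrate that also lies on chromosome 8, stood at 4.29 times in YZ4 and 0.513 times in YZ7, and it too was named after its values were seen.

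The genes whose pattern over the 18 tumors was most like that of Arhgef18 depended on the measure. By Pearson r of log2 CPM, 8 of the 9 other members were among the 20 most alike genes, led by Pnpla6 (0.97), Mcoln1 (0.97) and Insr (0.96). Camsap3 (0.77) was the exception. The members were chosen for standing high together with Arhgef18 in these same tumors, so high values of r follow from the choice. Outside the interval the 5 most alike were Arhgef4 (0.94), Pex10 (0.93), Fsd1 (0.92), Rec8 (0.90) and Gm31763 (0.90), each high in YZ7. By Spearman rho none of the 9 was among the 20, and the highest was Camsap3 (0.80, rank 38). The 5 genes with the highest rho were Spag8 (0.88), Plcxd1 (0.87), Gm47140 (0.87), 5430431A17Rik (0.86) and Gm11969 (0.86). Without YZ4 and YZ7 the rho of the 9 members with Arhgef18 ran from 0.16 (Mcoln1) to 0.71 (Camsap3). The points share 2 extreme tumors, and ranks give these no more weight than any other.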

How the data were processed

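The authors extracted RNA from 18 mammary tumors, depleted ribosomal RNA and made stranded total RNA libraries (the labels name mRNA). They checked reads with FastQC 0.11.9, aligned them to GRCm39 (mm39) with STAR 2.7.10b and counted genes of GENCODE M34 with RSEM 1.3.3. Deposited were raw counts per gene and tumor, without normalization. How the estimates were rounded and the strand setting are not given in the sources used here. The study itself tested groups with DESeq2. Each tumor is 1 sample, and tumors of the same mouse are not independent.

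From the counts, genes were tested with edgeR 4.0.16 in R 4.3.3 (TMM, filterByExpr, quasi-likelihood F-test, Benjamini-Hochberg over all genes tested). A gene was called where the FDR was under 0.05 and the log2 fold change exceeded 2 in size. Each mutant group was fitted with the MaP -/- tumors, and the mutant groups were compared in 1 fit of all 18. Levels are CPM on TMM library sizes over the 18 tumors, and likeness used log2(CPM + 0.01). Positions were joined from GENCODE M39 on GRCm39, where 56620 of 57126 gene IDs matched. Counts of 23113578 to 37365062 per tumor set the precision. Alternatives were DESeq2 1.42.0, its size factors, other filters, summed tumors of 1 mouse and left-out tumors. The code was tested on simulated data. Tables and plots were made with Python 3.11.15, numpy 2.4.6, pandas 2.3.3, scipy 1.17.1 and matplotlib 3.10.9.

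The members, lists and markers were chosen with earlier results of these data known. Named were the 10 block genes, the other protein-coding genes of the interval, the 5 next genes on its far side, the 5 genes most like Arhgef18 by each measure, Trp53, and up to 4 genes per list by smallest FDR or largest ratio in YZ7. The listed Nr5a2 matches and primers are the study's own sequences, placed on GRCm39 by exact match. Not all Arhgef18 matches lay in the bases just before its annotated start. They were therefore placed in the shortest stretch, searched up to the gene's end, that held all of them. Their distances were measured to the next annotated Arhgef18 transcript start. Some list genes and a promoter sequence are not reported here.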

Additional observations from a re-analysis of the deposited data

Results flagged for a closer look

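For each block gene and group the highest or lowest tumor was compared with its nearest neighbour by Dixon's test. Of 30 groups, 12 held a tumor beyond the critical value. Chance alone gives about 1 in 20, but 10 of the 12 are YZ7, whose high levels chose the genes, so the count cannot be read against chance. YZ7 was that tumor in the MaP R172H/- group for all 10 genes, with YZ4 its nearest neighbour each time. Its levels were 1464 CPM for Insr, 1862 CPM for Arhgef18, 107 CPM for Pex11g, 489 CPM for Zfp358 and 1786 CPM for Mcoln1. They were 3914 CPM for Pnpla6, 318 CPM for Camsap3, 3012 CPM for Xab2, 1545 CPM for Stxbp2 and 1102 CPM for Trappc5.

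In the MaP R245W/- group, Pex11g stood apart in JM1564, at 10.6 CPM against 5.08 CPM in the next tumor. In the MaP -/- group, Mcoln1 stood apart in JM833-T2, low at 30.8 CPM against 37.7 CPM in the next.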

How the results depend on the processing

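No paired analysis was possible because the replicate numbers only follow the order of deposit. The median ratio of the 10 genes ranged from 25.4 to 28.9 in YZ7 and from 3.27 to 3.33 in YZ4 with each tumor left out of the reference in turn. In MaP R172H/- against MaP -/- tumors, 1 gene was called, against 3 by DESeq2 (Arhgef18, Zfp358 and Camsap3), 6 in a fit of all 18 tumors and 0 with tumors of 1 mouse summed. With single tumors left out it was 0 to 1 (median log2 fold change 0.87 to 2.95). The median was 0.95 by DESeq2, which was run with its default handling of outlying counts. By DESeq2 Pex11g, Mcoln1, Pnpla6, Xab2, Stxbp2 and Trappc5 had 0.327 to 0.996, near their edgeR values without YZ7 (0.354 to 1.06). Insr, Arhgef18, Zfp358 and Camsap3 stayed near their edgeR values over all tumors. Without YZ4 and YZ7, a setting chosen after seeing the data, the median was 0.43 with 0 called, and Pex11g turned to -0.10. Against MaP R245W/- tumors, 2 were called, against 5 by DESeq2, 1 with no filter, 0 in a fit of the 12 mutant tumors, 1 with tumors summed and 0 without YZ4 and YZ7 (median 0.25). With single tumors left out it was 0 to 5 (median 0.62 to 2.86). In MaP R245W/- against MaP -/- tumors it was 0 throughout (median -0.08 to 0.18). The shares of all genes called in these other fits are not given here.

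List genes higher and lower in MaP R172H/- against MaP -/- tumors were 3 and 3, against 6 and 5 by DESeq2, 5 and 3 without YZ7, 6 and 2 without YZ4 and YZ7, and 1 and 1 with tumors summed. The lower genes changed from Rock2, Mcoln2 and Tpcn2 to Tpcn2, Trappc2 and Vamp3 without YZ7. Without YZ4 and YZ7 they were Trappc2 and Vamp3. The higher genes Arhgef17, Tfeb and Zfp830 stayed in both settings. Against MaP R245W/- tumors 0 list genes were higher, against 4 by DESeq2 and 2 with tumors summed. These list settings were also chosen after seeing the data, and the shares of all genes higher or lower in them are not given here. At 3-fold in place of 2-fold, YZ7 had 7 of 124 genes of the first 30 Mb outside the interval and 32 of 639 on the rest of the chromosome. YZ4 had 6 of 10 members, 10 of 18 interval genes, 27 of 124 and 20 of 639, and 73 of 217 genes of all biotypes at 2-fold. By Pearson r 8 members were among the 20 genes most like Arhgef18, by Spearman rho 0. The cause of these changes was not tested. Depth limits genes with few counts, such as the Cd209 genes, Saxo5, Clec4g, Retn and Rps23rg1.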
